A study of Homo sapiens with 9 samples.

Results

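The Jumonji histone demethylases examined here were KDM2A, KDM2B, KDM3A, KDM4A, KDM4B, KDM4C, KDM5B, KDM5C, KDM6B and JMJD6. They were taken by name, as every non-control probe of the arrays whose transcript identifier belongs to one of these 10 symbols in RefSeq, out of 47753 gene names on the array. The 10 genes were read by 16 of 58201 probes, 5 genes by 1 probe, 4 genes by 2 probes and KDM4C by 3 probes. All 16 probes were well above background on all 9 arrays, so a filter on dim probes removed none of them.

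The arrays hold RNA of OEC-M1, a cell line from a human head and neck squamous cell carcinoma. Cells were transfected for 72 h with a control siRNA (si-Control, 3 arrays), an siRNA against GATA3 (GATA3 knockdown, 3 arrays) or an siRNA against HIF-1α (HIF-1α knockdown, 3 arrays), and every array, si-Control included, comes from cells kept in 1% O2 for 18 h. No normoxic array enters here, so each difference is between cells that were all hypoxic. A legend of the study names 1 siRNA sequence for each target on the arrays, and the numbers in the sample titles were read as replicate numbers, although the labels do not say so and the study also numbers its siRNA sequences. A single cell line was used, and the labels do not give separate cultures for the 3 arrays of a group, so the P values measure only the spread between these arrays, which may be technical.

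Jumonji (JmjC) histone demethylases remove methyl groups from lysine by oxidation, in a reaction that uses molecular oxygen, iron and 2-oxoglutarate, and low oxygen can therefore slow them. HIF-1, the transcription factor formed by HIF-1α and ARNT, accumulates in hypoxia, and KDM3A and KDM4B are textbook members of its target genes in many cell types. The members differ in the mark they remove. KDM3A acts on H3K9, KDM4A, KDM4B and KDM4C on H3K9 and H3K36, KDM2A and KDM2B on H3K36, KDM5B and KDM5C on H3K4, and KDM6B on H3K27. JMJD6 belongs to the same fold family and is best known as a lysyl hydroxylase of splicing factors, but is counted here with the demethylases. GATA3, a zinc finger transcription factor of T cells and luminal epithelium, was silenced in this study to ask whether it acts with HIF-1α.

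RefSeq promoter windows (250 bases before to 50 bases after a start, GRCh38.p14) were at hand for 9 of the 10 members, 15 windows in all, with none listed for JMJD6. The 250 bases before the start are shown for KDM3A, which had the largest fold change on HIF-1α knockdown, for KDM4B and KDM6B, 2 of the 3 members called whichever array was left out, and for KDM4A, which was not called. KDM3A and KDM6B have 2 windows each, of which the first listed is shown. The other KDM3A window overlaps it and held 1 HIF core, and the other KDM6B window held 0. Capitals mark the HIF core, ACGTG or GCGTG, on either strand.
KDM3A, chr2:86441121-86441370, plus strand: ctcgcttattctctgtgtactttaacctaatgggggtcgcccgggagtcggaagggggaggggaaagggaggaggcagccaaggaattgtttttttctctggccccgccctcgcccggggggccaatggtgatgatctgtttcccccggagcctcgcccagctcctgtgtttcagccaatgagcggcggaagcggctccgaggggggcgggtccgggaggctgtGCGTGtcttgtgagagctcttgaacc
KDM4B, chr19:4968863-4969112, plus strand: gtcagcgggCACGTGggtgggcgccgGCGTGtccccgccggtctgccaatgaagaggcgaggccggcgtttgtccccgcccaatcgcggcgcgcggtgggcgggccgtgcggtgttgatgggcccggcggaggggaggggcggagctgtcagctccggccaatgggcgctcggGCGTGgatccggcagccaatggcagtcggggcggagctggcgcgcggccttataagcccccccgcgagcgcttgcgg
KDM6B, chr17:7833967-7834216, plus strand: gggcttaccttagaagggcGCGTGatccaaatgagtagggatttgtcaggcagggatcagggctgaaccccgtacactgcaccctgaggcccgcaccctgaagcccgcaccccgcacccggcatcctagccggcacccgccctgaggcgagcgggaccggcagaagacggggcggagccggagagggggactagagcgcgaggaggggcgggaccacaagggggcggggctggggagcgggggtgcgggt
KDM4A, chr1:43649899-43650148, plus strand: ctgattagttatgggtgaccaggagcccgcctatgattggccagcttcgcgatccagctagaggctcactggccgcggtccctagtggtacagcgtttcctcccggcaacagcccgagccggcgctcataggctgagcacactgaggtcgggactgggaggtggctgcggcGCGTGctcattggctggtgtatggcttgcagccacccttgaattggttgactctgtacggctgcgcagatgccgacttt

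The KDM3A stretch holds 1 HIF core, 26 bases before the start, and the KDM4A stretch also holds 1, at 79 bases. The KDM4B stretch holds 4 matches, of which 2 are the same CACGTG read on both strands. Over whole windows, 12 of 15 member windows (80%) and 48.4% of all 35116 windows in the table held at least 1 HIF core. The members' windows had a median GC content of 63.7% and all windows one of 58.7%, and the core is itself rich in G and C. Windows of the other JmjC proteins listed below had a median GC content of 66.3%, and 52.4% held the core. For windows of the HIF-1 targets listed below these values were 69.8% and 83.3%. The part of GC content in these shares was not tested. By gene, 8 of 9 members and 52.4% of all genes had a window with the core, and KDM5C had none. The GATA motif, searched as NGATAN with A or T first and A or G last on either strand, was in 1 of 15 member windows, a window of KDM2B, and in 25.0% of all windows. These are matches of letters only.

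The level of each target checked the labels. GATA3 normalised intensity (log2) was 10.71, 11.12 and 11.48 in si-Control and 9.64, 9.48 and 10.40 in the GATA3 knockdown, a log2 fold change of −1.27 (95% confidence interval −2.01 to −0.52). HIF1A was 16.71, 16.24 and 17.24 in si-Control and 14.51, 14.13 and 14.59 in the HIF-1α knockdown, a log2 fold change of −2.32 (−3.10 to −1.54). In both cases all 3 silenced arrays lay below all 3 si-Control arrays. HIF1A differed by −0.05 (−0.83 to 0.73) between the GATA3 knockdown and si-Control.

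Raw array brightness differed between and within groups. The median spot intensity ran from 992.5 to 2807.5 in si-Control, from 1410 to 2452 in the GATA3 knockdown and from 2132 to 3560 in the HIF-1α knockdown, and 73.3% to 88.0% of probes were well above background. Per the file headers the 9 arrays lay on 3 slides, each with 1 array of every group, and the slide went with the replicate number. Of 7 epithelial markers, 5 were well above background on all 9 arrays and KRT5 on none, while the brightest probes of PTPRC, PECAM1 and COL1A1, markers of leukocytes, endothelial cells and fibroblasts, were above background on all 9. Some other probes of these genes were not, with 2 of the 5 PTPRC probes above background on 0 arrays and the other PECAM1 probes on 2 and 8. The brightest probes of PTPRC and PECAM1 were not called in any comparison. That of COL1A1 had 4 spots missing, with 2 arrays left in si-Control, 2 in the GATA3 knockdown and 1 in the HIF-1α knockdown, too few to read its tests. The PECAM1 probe A_23_P252471 was called, higher in the HIF-1α knockdown than in si-Control (log2 fold change 0.73) and lower in the GATA3 knockdown than in the HIF-1α knockdown (−1.19). Of the epithelial markers KRT6A alone was called, lower in the GATA3 knockdown than in the HIF-1α knockdown (log2 fold change −1.48). Each array measured a whole culture, so fewer cells expressing a gene and less RNA per cell cannot be told apart.

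The first comparison asked how the demethylases stood when HIF-1α was silenced in hypoxia. All 10 log2 fold changes in the HIF-1α knockdown were below 0, with a median of −1.02 where the median of all 47368 genes tested was −0.01, and 7 of the 10 fell at an unadjusted P under 0.05, the threshold used throughout. The 7 were KDM2A, KDM3A, KDM4B, KDM4C, KDM5B, KDM5C and KDM6B, whose intensities stood at 37.4% to 50.6% of si-Control. Over all genes 5.23% were called and 3.28% were called lower. No member, and none of the 47368 genes, passed after Benjamini-Hochberg adjustment (limma), where the 7 had adjusted P values of 0.792 to 0.823. Without si-Control replicate 3, and likewise without HIF-1α knockdown replicate 1, the members called were 3, KDM4B, KDM5B and KDM6B.

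**Figure D1:**
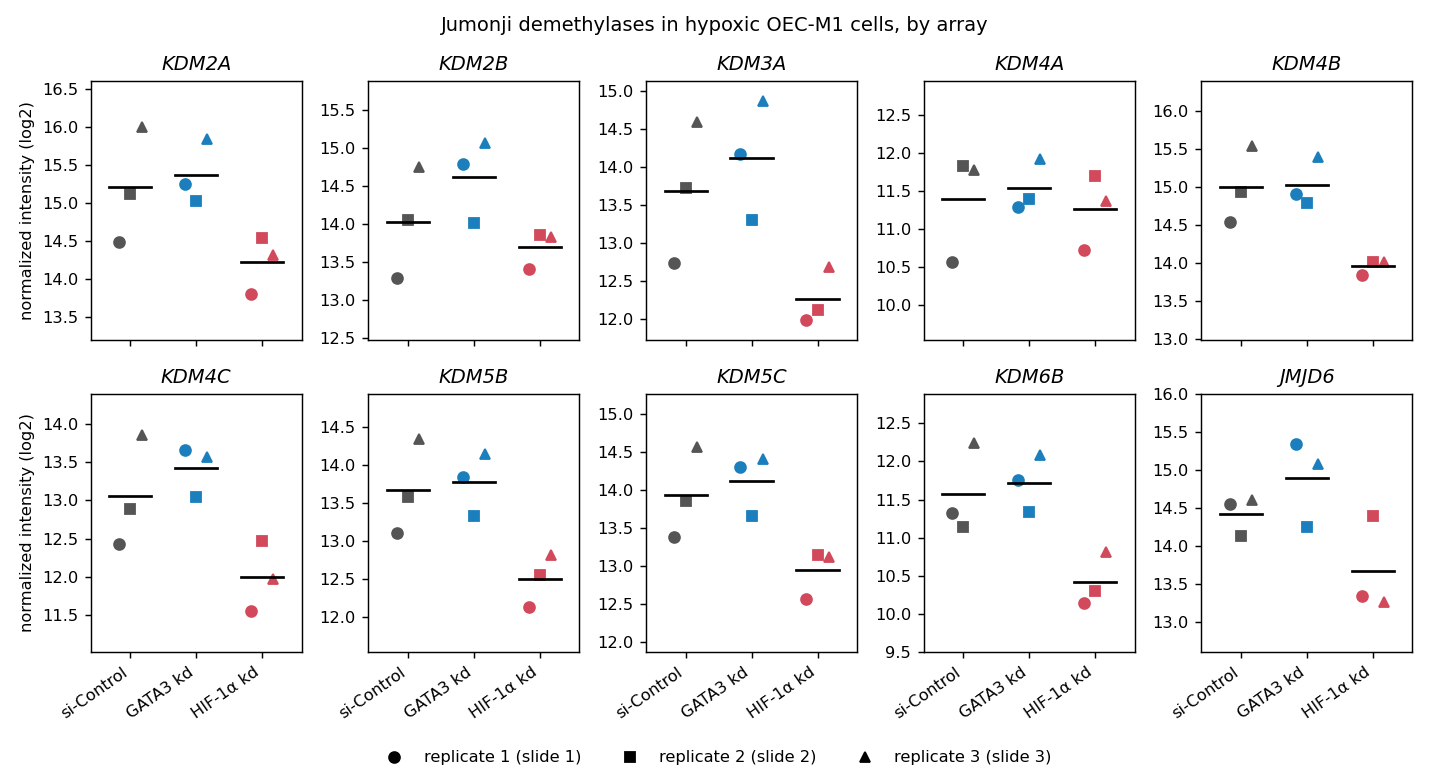
Normalised intensity (log2) of the brightest probe of each of the 10 demethylases on the 9 arrays, by group (kd, knockdown). Points are arrays, shapes mark the replicate number and slide, and bars are group means of 3 arrays. KDM3A, KDM4B, KDM5B, KDM5C and KDM6B were lower on every HIF-1α knockdown array than on every si-Control array, while KDM4A overlapped throughout.

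KDM3A, which removes H3K9 mono- and dimethylation, had the largest difference of the members. Its intensity (log2) was 12.74, 13.72 and 14.59 in si-Control, 14.17, 13.31 and 14.87 in the GATA3 knockdown and 11.99, 12.12 and 12.68 in the HIF-1α knockdown. The 3 HIF-1α knockdown arrays were the lowest of the 9, although the highest of them lay just under the lowest si-Control array. The log2 fold change was −1.42 (95% confidence interval −2.54 to −0.29, adjusted P = 0.823), and 0.378% of all genes had a lower one. It was no longer called without si-Control replicate 3 (−0.96), without HIF-1α knockdown replicate 1 (−1.28) or without HIF-1α knockdown replicate 2 (−1.36).

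The KDM4 enzymes, which act on H3K9 and H3K36, did not all stand alike. KDM4B was 14.54, 14.93 and 15.54 in si-Control and 13.85, 14.01 and 14.02 in the HIF-1α knockdown, where its 3 arrays were close together (SD 0.10 against 0.50). It fell by 1.05 on the log2 scale (95% confidence interval −1.71 to −0.39, adjusted P = 0.792), and was called with any 1 of the 9 arrays left out. KDM4C was 12.43, 12.89 and 13.86 in si-Control and 11.55, 12.47 and 11.96 in the HIF-1α knockdown, so that the groups overlapped by 1 array, with a log2 fold change of −1.06 (−1.94 to −0.19). KDM4A was 10.56, 11.83 and 11.77 in si-Control and 10.72, 11.70 and 11.36 in the HIF-1α knockdown. Its difference of −0.13 had a confidence interval of −1.01 to 0.75, which still holds a log2 fall of 1.01.

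Both H3K4 demethylases fell. KDM5B was 13.11, 13.58 and 14.35 in si-Control and 12.14, 12.56 and 12.81 in the HIF-1α knockdown, a log2 fold change of −1.17 (95% confidence interval −1.97 to −0.37). KDM5C, its X-linked relative, was 13.37, 13.86 and 14.56 in si-Control and 12.57, 13.14 and 13.12 in the HIF-1α knockdown, a log2 fold change of −0.99 (−1.77 to −0.21). For both genes the groups did not overlap. KDM5B was called with any 1 array left out and KDM5C in 7 of these 9 fits.

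KDM6B, which removes H3K27 methylation laid down by Polycomb, was also called. It read 11.33, 11.14 and 12.24 in si-Control and 10.14, 10.30 and 10.81 in the HIF-1α knockdown, with no overlap. Its log2 fold change was −1.15 (95% confidence interval −1.93 to −0.38), and it too was called with any 1 array left out.

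Of the H3K36 demethylases, KDM2A fell and KDM2B depended on the probe. KDM2A was 14.50, 15.12 and 16.01 in si-Control and 13.81, 14.55 and 14.32 in the HIF-1α knockdown, a log2 fold change of −0.98 (95% confidence interval −1.87 to −0.09). The groups overlapped by 1 array, and KDM2A was called in 5 of the 9 fits with 1 array left out, the fewest of the 7. KDM2B, also a subunit of a Polycomb repressive complex, was 13.30, 14.05 and 14.75 in si-Control and 13.41, 13.86 and 13.83 in the HIF-1α knockdown on its brighter probe, a difference of −0.33 (−1.22 to 0.55), which was not called. JMJD6, the hydroxylase, was 14.55, 14.13 and 14.60 in si-Control and 13.35, 14.40 and 13.27 in the HIF-1α knockdown. It differed by −0.75 (−1.60 to 0.09) and was not called, with replicate 2 of the knockdown above 1 si-Control array.

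In all, 5 of the 10 members, KDM3A, KDM4B, KDM5B, KDM5C and KDM6B, were lower on all 3 HIF-1α knockdown arrays than on any si-Control array. Over the 40739 genes measured on all of these arrays, 8.08% had the groups apart in this way.

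**Figure D2:**
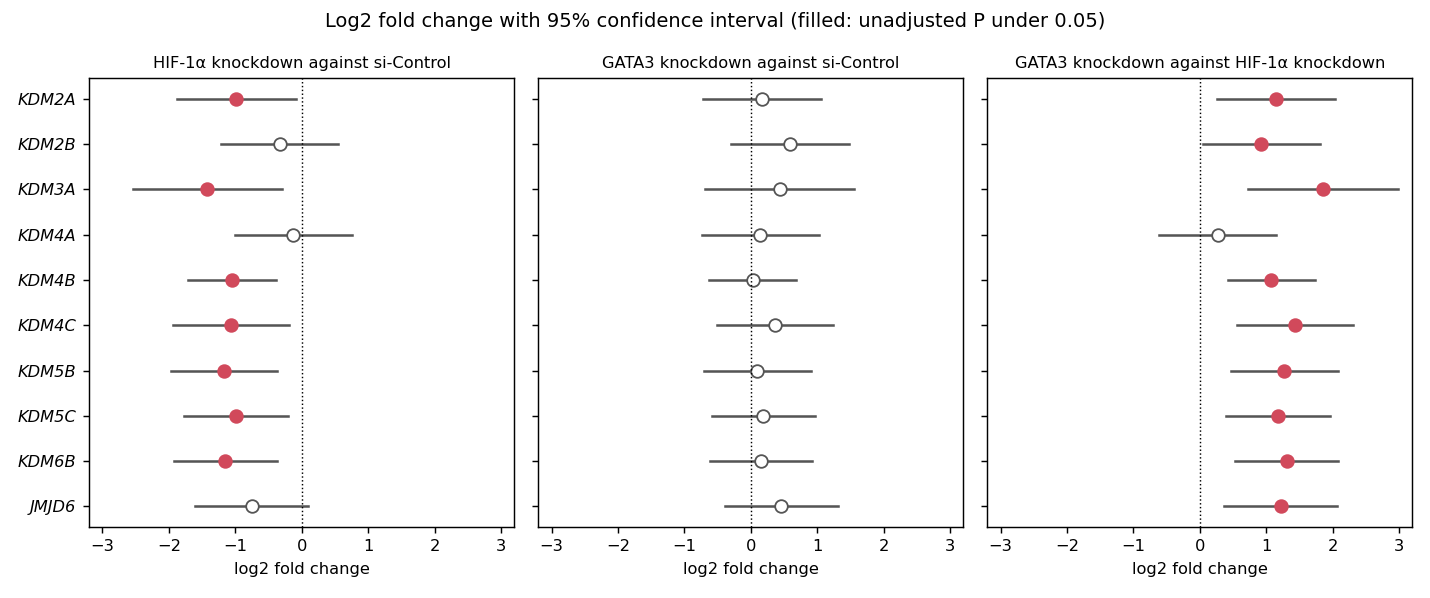
Log2 fold change of the 10 demethylases (points) with 95% confidence intervals (lines) in the 3 comparisons, 3 arrays a group. Filled points passed an unadjusted P under 0.05, which holds for 7 members in the HIF-1α knockdown against si-Control, for none in the GATA3 knockdown against si-Control and for 9 in the GATA3 knockdown against the HIF-1α knockdown.

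The second comparison asked the same of GATA3 silencing. None of the 10 members was called in the GATA3 knockdown against si-Control by limma at an unadjusted P under 0.05, against 2.97% of all 47720 genes tested. All 10 log2 fold changes were above 0, with a median of 0.18 against −0.02 over all genes, and they ran from 0.03 for KDM4B to 0.59 for KDM2B. KDM2B was 14.79, 14.02 and 15.07 in the GATA3 knockdown, with a confidence interval of −0.29 to 1.48 for its difference, and its arrays overlapped those of si-Control, as did those of the other 9 members. The intervals do not show that the levels were alike. That of KDM3A (0.44) reached from −0.69 to 1.56 and that of KDM4B (0.03), the narrowest, from −0.63 to 0.69. For the 7 members that fell on HIF-1α knockdown, the lower bounds in the GATA3 knockdown ran from −0.72 for KDM2A to −0.51 for KDM4C.

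The sign of the GATA3 difference varied between slides. On slide 1 all 10 members were higher in the GATA3 knockdown array than in the si-Control array, by a median of 0.78. On slide 2 the median was −0.11, with 3 members higher, and on slide 3 it was −0.15, with 4 higher. By brightest probe, as in these counts, only JMJD6 was higher on all 3 slides. The less bright probes A_33_P3529860 of KDM2B and A_21_P0000019 and A_22_P00008601 of KDM4C were also higher on all 3. Without si-Control replicate 1 the median over the members was −0.06, without GATA3 knockdown replicate 1 it was 0.23 and without GATA3 knockdown replicate 3 it was 0.01. Without si-Control replicate 3 it was 0.53 with KDM2B and KDM4C called, in a fit that called 12.6% of all genes. By their deviations from the group means, the replicate number paired replicates 2 and 3 of these groups, but not clearly replicate 1. With the replicate number as a block, none of the 10 members and 4.99% of all genes were called.

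On the same slides the HIF-1α knockdown differences kept their sign for 7 of the 10 members. The members' median was −0.78 on slide 1, −0.65 on slide 2 and −1.48 on slide 3. The 7 members that were lower on every slide were the 7 called ones. By brightest probe, as in these counts, the exceptions were KDM2B, KDM4A and JMJD6. KDM2B and KDM4A were higher in the knockdown by 0.11 and 0.16 on slide 1, and JMJD6 by 0.27 on slide 2. The less bright KDM2B probe was lower on every slide (−0.75, −0.99 and −2.47).

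**Figure D3:**
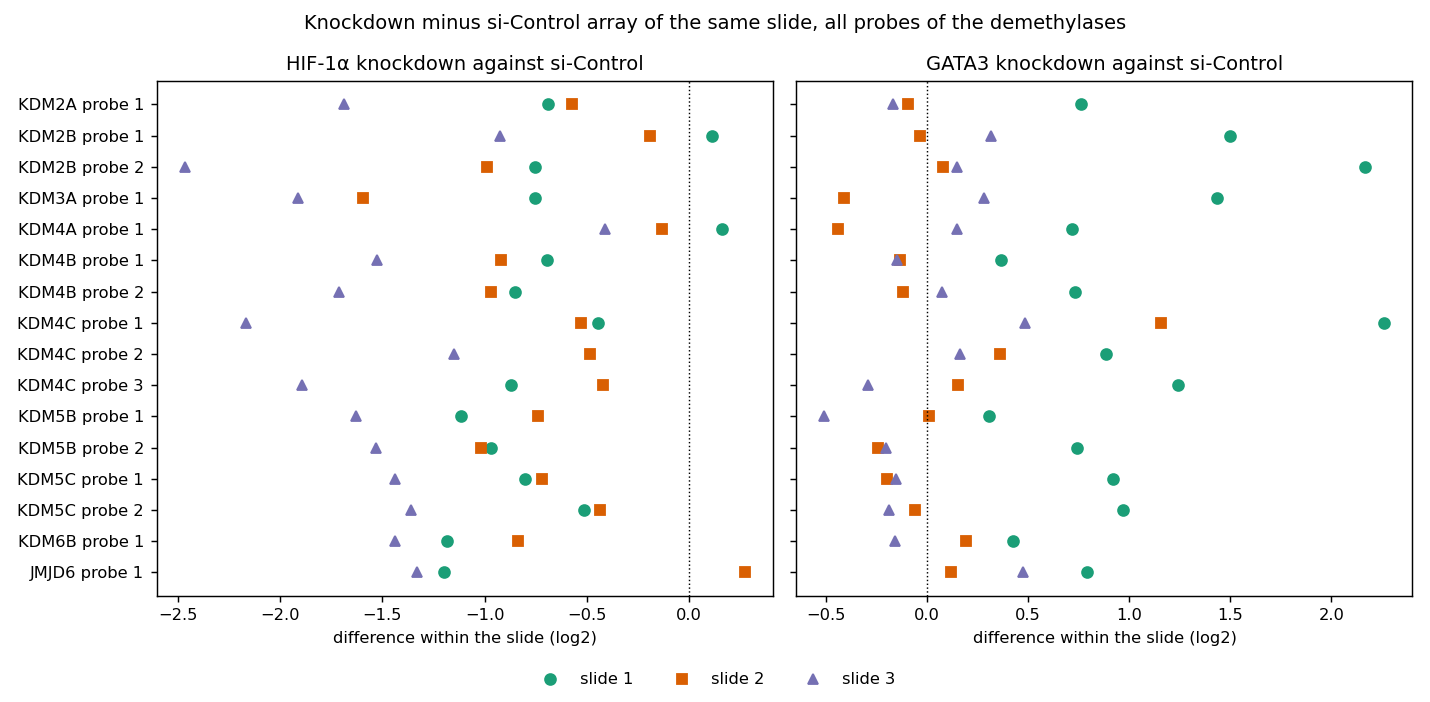
Difference in normalised intensity (log2) between the knockdown array and the si-Control array of the same slide, for all 16 probes of the 10 demethylases. Shapes and colours mark the slide, and probes of a gene are in order of their array names. In the HIF-1α knockdown the slide 3 differences were the lowest for each probe, and in the GATA3 knockdown the slide 1 differences were the highest.

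The third comparison set the knockdowns against each other. In it 9 of the 10 members were higher in the GATA3 knockdown than in the HIF-1α knockdown, all but KDM4A (0.27, 95% confidence interval −0.61 to 1.15). The share of all 47356 genes called was 12.0%, and 6.93% were called higher. Log2 differences of the 9 ran from 0.93 for KDM2B to 1.85 for KDM3A, with adjusted P values of 0.301 to 0.411, and the median over the 10 was 1.20. With 1 array left out, 7 of these 9 members were called in each of the 9 fits, KDM2A in 7 fits and KDM2B in 3. KDM2A was not called without GATA3 knockdown replicate 3 (0.91) or HIF-1α knockdown replicate 1 (0.96). KDM2B was called without si-Control replicate 1 (0.92), si-Control replicate 3 (0.93) or GATA3 knockdown replicate 2 (1.23), and not in the other 6 fits, where its difference ran from 0.71 to 1.01. For 8 members, all but KDM4A and JMJD6, the GATA3 knockdown arrays were all above the HIF-1α knockdown arrays, as were those of 11.9% of the 41116 genes measured on them. This comparison shares its HIF-1α knockdown arrays with the first and its GATA3 knockdown arrays with the second, and is no separate evidence for either.

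The 16 probes were also tested one by one. In the HIF-1α knockdown 10 of 16 were called lower and none higher, against 3.43% of all probes called lower. The less bright probe of KDM2B, A_33_P3529860, was among them, with a log2 fold change of −1.40 (95% confidence interval −2.60 to −0.20), whereas A_33_P3529859 gave the −0.33 above. The pair is annotated to different KDM2B transcripts, and no test was made of the difference between them. Both probes of KDM4B (−1.05 and −1.18) and of KDM5B (−1.17 and −1.16) were called. Those of KDM5C gave −0.99 and −0.77, of which the second was not called. The 3 probes of KDM4C, each annotated to another transcript, gave −1.06, −1.05 and −0.84, of which only the brightest was called, and the last lacks HIF-1α knockdown replicate 1, where its spot was marked non-uniform.

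Only 1 probe of 16 was called higher in the GATA3 knockdown, against 1.77% of all probes. It was A_21_P0000019 of KDM4C, at 9.41, 9.73 and 11.55 in si-Control and 11.67, 10.88 and 12.04 in the GATA3 knockdown, a log2 fold change of 1.30 (95% confidence interval 0.15 to 2.46). The GATA3 knockdown arrays of this probe overlapped si-Control replicate 3, and the other probes of KDM4C gave 0.37 and 0.47. Between the knockdowns 15 of 16 probes were called higher with GATA3 silenced, against 7.42% of all probes.

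The demethylases varied together from array to array inside each group. In si-Control, 8 of 10 members were lowest on replicate 1 and 9 of 10 were highest on replicate 3. This order was not particular to the members. Of the other JmjC proteins, KDM3B, JMJD1C, KDM6A, KDM7A, PHF2, PHF8, HIF1AN, JMJD7 and RIOX2 also rose at each step from replicate 1 to replicate 3. So did the histone H3 lysine methyltransferases KMT2A, KMT2C, SUV39H1, SUV39H2, EHMT1, EHMT2, SETDB1, EZH1, EZH2, SETD2, NSD1, NSD3 and ASH1L. KDM8, JARID2 and SETDB2 fell at each step, and the rest of both lists had no steady order or lacked an array. These are readings of brightest probes. Of the GATA3 knockdown arrays, replicate 2 was the lowest for 9 members, and in the HIF-1α knockdown 9 were lowest on replicate 1. The median deviation of the 10 members from their own means was −0.35, 0.19 and 0.95 (log2) on the 3 si-Control arrays, 0.58, 0.01 and 0.79 on the GATA3 knockdown arrays and −1.09, −0.46 and −0.58 on the HIF-1α knockdown arrays. Over the 28468 genes above background on all 9 arrays the same median stayed between −0.07 and 0.13. Quantile normalisation holds this median near 0, so it cannot show whether other genes moved with the members. The distance between the member levels of the lowest and the highest si-Control array was larger than the members' median difference on HIF-1α knockdown.

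These array levels ran broadly opposite to raw array brightness, and the part of brightness in the results was not tested beyond the fit below. The dimmest array, si-Control replicate 3 with a median of 992.5, had the highest member level, and the brightest, HIF-1α knockdown replicate 1 with 3560, had the lowest. Si-Control replicate 2 and HIF-1α knockdown replicate 2, with medians of 2126.5 and 2132, had member levels of 0.19 and −0.46, and GATA3 knockdown replicate 2 and HIF-1α knockdown replicate 3, with 2452 and 2502.5, had 0.01 and −0.58. The brightest si-Control array, replicate 1 with 2807.5, had a member level of −0.35, close to those of HIF-1α knockdown replicates 2 and 3, and no array of another group came near the brightness of HIF-1α knockdown replicate 1. With the log2 brightness of each array as a covariate, a fit chosen after seeing the data, the median over the members in the HIF-1α knockdown went from −1.02 to −0.54 and 6 of the 10 were called, against 7.83% of all genes in this fit. KDM2A was no longer called (−0.45). The 6 called were KDM3A (−0.77), KDM4B (−0.72), KDM4C (−0.54), KDM5B (−0.71), KDM5C (−0.53) and KDM6B (−0.77), while KDM2B (0.19) and KDM4A (0.27) changed sign without being called in either fit. For GATA3 silencing the median was 0.16 in this fit, and KDM2B (0.57) was called higher, where 10.1% of all genes were called. Between the knockdowns KDM2B (0.38) was no longer called in it.

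**Figure D4:**
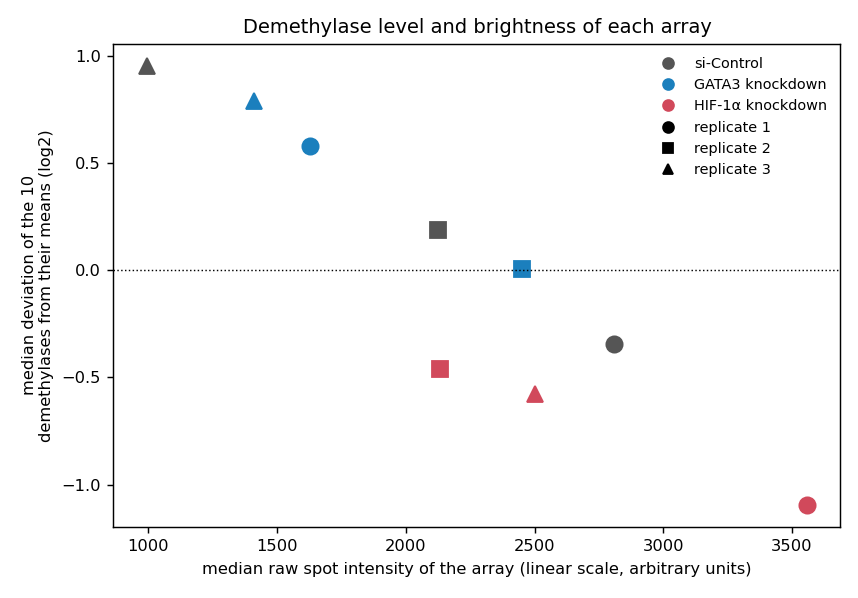
Median deviation of the 10 demethylases from their means over the 9 arrays (vertical axis, log2) against the median raw spot intensity of the array (horizontal axis, linear). Each point is 1 array, colour marks the group and shape the replicate. The level ran from 0.95 on the dimmest array to −1.09 on the brightest, and si-Control replicate 1, at −0.35, lay close to HIF-1α knockdown replicates 2 and 3, at −0.46 and −0.58.

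Other gene families were read from the same fit. Of 20 other JmjC proteins measured, 1 was called lower in the HIF-1α knockdown and none higher, with a list median of −0.15, where 5.23% of all genes were called. The 1 was JMJD1C, a relative of KDM3A, with a log2 fold change of −0.97. KDM6A was not called on its brightest probe (−0.90), while its other probe was called lower (−1.14). PHF2, an H3K9 demethylase, was the 1 called higher in the GATA3 knockdown (1.06), where 2.97% of all genes were called, and its spot was missing on 1 GATA3 knockdown array. Between the knockdowns 3 were called higher with GATA3 silenced, JMJD1C (0.93), the H3K27 demethylase KDM6A (1.11) and KDM7A (1.30), a demethylase of H3K9 and H3K27. Of all genes 12.0% were called there and 6.93% were called higher. The less bright probes of KDM6A (1.06) and KDM7A (0.50) were not called between the knockdowns.

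Histone H3 lysine methyltransferases, which lay down the marks that the demethylases remove, were measured for 17 of 19 genes. None was called on its brightest probe in either knockdown against si-Control by limma at an unadjusted P under 0.05. Of all genes 5.23% were called in the HIF-1α knockdown and 2.97% in the GATA3 knockdown. The list medians were −0.22 in the HIF-1α knockdown and 0.14 in the GATA3 knockdown. A less bright NSD2 probe, A_23_P398530, was called higher in the GATA3 knockdown (0.91), where the brightest NSD2 probe gave 0.26. Between the knockdowns it (0.83) and the NSD2 probe A_33_P3423631 (0.86) were called higher. Against the HIF-1α knockdown 2 were called higher in the GATA3 knockdown, the H3K4 methyltransferase KMT2C (0.91) and the Polycomb enzyme EZH1 (0.71), where 12.0% of all genes were called and 6.93% were called higher. Of 12 HIF-1 targets named in textbooks, 9 were called lower in the HIF-1α knockdown, where 3.28% of all genes were called lower. Their list median was −0.97, with a range of −2.72 to 0.06. In the GATA3 knockdown their median was −0.14 and 1 was called lower, where 2.97% of all genes were called in either direction. No gene of the 3 lists passed after adjustment in any comparison. The small counts moved with the processing, from 0 to 3 for the other JmjC proteins and from 0 to 3 for the methyltransferases in either knockdown against si-Control.

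The profile of KDM3A over the 9 arrays was closest to those of NAMPT, WSB1, TP53BP2, PIGA and HK2, among 15914 named genes above background on all arrays. The root mean square difference of the centred log2 intensities was 0.19 to 0.25 for these 5 and had a median of 0.92 over all candidates. NAMPT makes a precursor of NAD, WSB1 is a subunit of a ubiquitin ligase, TP53BP2 binds p53, PIGA starts the synthesis of GPI anchors and HK2 is the hexokinase that begins glycolysis. Their log2 fold changes in the HIF-1α knockdown were between −1.49 and −1.17, and in the GATA3 knockdown between 0.07 and 0.49. They were chosen for this likeness, so these values are a description.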

How the data were processed

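RNA of OEC-M1 cells was measured on 9 1-colour Agilent arrays. The deposited scanner files, made by the submitters with Agilent Feature Extraction 10.5.1.1, hold spot intensity, background intensity and quality flags for 62976 spots, and the authors' methods exclude spots that Feature Extraction marked non-uniform and name limma for background correction, without naming which, for quantile normalisation and for differential expression. The authors' deposited log2 table equals log2 of the processed signal less 1 constant per array. The files hold the median and not the mean spot signal, so normexp (offset 50) was run on the median spot and background signals. Non-uniform spots were set to missing, control spots were left out, arrays were quantile normalised, each probe was given the mean of its spots, and each gene was read from the probe with the highest mean over the arrays. Probes were named through RefSeq (GRCh38.p14), which matched 31104 of 58201 probes. The number of arrays limits the precision. A single linear model per gene took in all 9 arrays (lmFit, eBayes, limma 3.58.1, R 4.3.3) and was tested on simulated data, and genes were called at an unadjusted P under 0.05 as in the authors' methods, with Benjamini-Hochberg adjusted P over all genes beside it. Samples were grouped by their titles. Same-numbered arrays shared a slide per the file headers. Those of si-Control and the GATA3 knockdown correlated over genes, as deviations from their group means, at 0.22, 0.59 and 0.72. Si-Control replicate 1 correlated more with GATA3 knockdown replicate 2 (0.47), so these deviations pair replicates 2 and 3 but not clearly replicate 1. Log2 fold changes on arrays understate large ratios. Members, gene lists and the rule for named genes (all members, both siRNA targets, called genes of the JmjC and methyltransferase lists and the 5 genes most like KDM3A) were chosen with earlier results of these data known. Alternatives covered background correction, scaling, the dim-probe filter, non-uniform spots, probes per gene, the replicate block, the samples in the fit, the variance model, the threshold, each array left out and, chosen after seeing the data, array brightness.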

Additional observations from a re-analysis of the deposited data

How the results depend on the processing

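The count of members called in the HIF-1α knockdown against si-Control (7) was 6 or 7 under 12 other settings, and 3 to 7 with 1 array left out. The 3 came without si-Control replicate 3, and without HIF-1α knockdown replicate 1, in both cases KDM4B, KDM5B and KDM6B. At an adjusted P of 0.05 it was 0. For the GATA3 knockdown against si-Control (0) it was 1 with array brightness as a covariate and 0 to 2 with 1 array left out, the 2 without si-Control replicate 3. Between the knockdowns (9) it was 8 or 9 under the other settings, 7 to 9 with 1 array left out and 0 at an adjusted P of 0.05. No called member reversed its sign in any of these fits.

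A replicate block, by replicate number and hence by slide, left the counts at 7, 0 and 9, and no member's call changed. Deviations of same-numbered arrays from their group means correlated over genes at 0.61, 0.12 and 0.07 between si-Control and the HIF-1α knockdown, and 0.34, −0.19 and 0.10 between the knockdowns, where the numbers were not taken to pair the arrays. Over all genes the block moved the calls in the GATA3 knockdown from 1418 to 2381, in the HIF-1α knockdown from 2478 to 3983 and between the knockdowns from 5675 to 8876. The processed signal scaled to its 75th percentile gave 3050 calls in the GATA3 knockdown, 2889 came from the log2 table of the authors and 4834 with the brightness covariate. All member probes were above background, and the number of arrays and their spread limit the precision.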
